A study of Homo sapiens with 6 samples.

Results

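OCA2 and MFSD12 encode membrane transport proteins of the melanosome, the organelle in which pigment cells make melanin, and both genes were measured here with 8 others in xenograft tumors of the human melanoma line WM983-B. The 10 genes were chosen by name and function, with their counts in treated against untreated tumors in view. Of these, 7 encode melanosomal transporters or receptors (OCA2, MFSD12, SLC45A2, SLC24A5, GPR143, TPCN2 and ATP7A). The other 3 are their neighbours: HERC2 beside OCA2, and TEKTIP1 (older symbol C19orf71) and HMG20B, which lie against MFSD12 on the opposite strand. All 10 were found among the 60617 gene identifiers of the count files, and all 10 passed the filter on low counts. The treatment differences of the 10 are therefore given as a description, and where their number past the threshold over all genes is counted, the count is no test of them.

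RNA sequencing was done on 6 tumors, 3 from the group given anle138b systemically and 3 from the group with no treatment. Anle138b, a diphenyl-pyrazole, binds α-synuclein and disturbs its oligomers. Every tumor came from the same cell line, and the labels name no vehicle, dose, treatment time, host strain or separate animals, so p-values measure only the spread between these libraries. The sample titles follow 2 naming patterns, each with both groups, here called the 4-library set (replicates 1 and 2 of each group) and the 2-library set (replicate 3 of each group). The labels do not say what these patterns mean.

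A melanosome matures from a colourless, acidic compartment into a pigmented one. Tyrosinase, its key enzyme, needs copper and a pH near neutral, so ion and copper transport affect how much melanin is made. OCA2 (the P protein) carries a chloride current that raises melanosomal pH, and SLC45A2 acts in the same direction at a later stage. TPCN2, a cation channel of melanosomes and lysosomes, favours a more acidic lumen. SLC24A5 exchanges potassium and calcium for sodium, ATP7A pumps copper to tyrosinase, and MFSD12 is needed for the import of cysteine, a building block of red pigment. GPR143 is a G protein-coupled receptor of the melanosome membrane. Loss of OCA2, SLC45A2, SLC24A5 or GPR143 causes forms of albinism.

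Promoter windows from RefSeq (250 bases before to 50 after the gene start, GRCh38.p14) are shown for the 4 genes that were at least 2-fold higher after treatment, OCA2, MFSD12, TEKTIP1 and HMG20B, and for SLC24A5, a melanosome gene that was not. Capitals mark matches, on either strand, to CATGTG or CACGTG, E-boxes that MITF and its relatives read, or to ACAAAG, a core of SOX sites. ACAAAG overlaps neither E-box.
OCA2 promoter, chr15:28099266-28099565, minus strand: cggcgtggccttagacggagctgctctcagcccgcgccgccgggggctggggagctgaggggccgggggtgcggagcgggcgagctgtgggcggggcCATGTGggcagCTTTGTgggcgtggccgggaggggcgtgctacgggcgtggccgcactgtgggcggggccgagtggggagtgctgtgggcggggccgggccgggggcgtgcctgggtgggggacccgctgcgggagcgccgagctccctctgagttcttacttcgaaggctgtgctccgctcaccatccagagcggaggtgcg
MFSD12 promoter, chr19:3557537-3557836, minus strand: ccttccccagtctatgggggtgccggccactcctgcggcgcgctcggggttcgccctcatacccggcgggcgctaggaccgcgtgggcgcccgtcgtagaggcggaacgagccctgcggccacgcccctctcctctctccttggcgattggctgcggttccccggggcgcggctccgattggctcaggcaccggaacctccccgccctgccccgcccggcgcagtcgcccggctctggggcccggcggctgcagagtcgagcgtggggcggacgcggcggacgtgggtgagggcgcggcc
TEKTIP1 promoter, chr19:3538924-3539223, plus strand: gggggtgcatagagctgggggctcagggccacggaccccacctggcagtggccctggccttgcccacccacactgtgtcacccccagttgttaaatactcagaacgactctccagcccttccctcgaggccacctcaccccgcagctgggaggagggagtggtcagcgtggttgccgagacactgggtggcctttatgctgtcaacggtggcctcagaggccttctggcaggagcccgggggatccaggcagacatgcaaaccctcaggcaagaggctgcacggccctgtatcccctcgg
HMG20B promoter, chr19:3572694-3572993, plus strand: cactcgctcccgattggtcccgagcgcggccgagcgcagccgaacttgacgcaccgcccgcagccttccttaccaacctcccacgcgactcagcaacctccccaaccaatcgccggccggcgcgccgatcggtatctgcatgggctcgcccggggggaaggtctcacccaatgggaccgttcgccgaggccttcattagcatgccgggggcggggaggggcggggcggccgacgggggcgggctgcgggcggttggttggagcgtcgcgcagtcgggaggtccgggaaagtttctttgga
SLC24A5 promoter, chr15:48120740-48121039, plus strand: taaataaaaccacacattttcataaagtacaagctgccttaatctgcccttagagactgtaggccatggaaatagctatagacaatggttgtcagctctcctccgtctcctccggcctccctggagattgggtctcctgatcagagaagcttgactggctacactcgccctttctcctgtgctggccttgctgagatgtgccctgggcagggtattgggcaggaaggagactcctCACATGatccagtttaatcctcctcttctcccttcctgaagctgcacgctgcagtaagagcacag

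Of the 10 genes, 9 had a window in the RefSeq table. That of GPR143 lies inside the gene's RefSeq body, at an internal start, and was left out. Of the other 8, 3 held a match. The OCA2 window held CATGTG at -153, counted from the gene start to the match's leftmost printed base, and ACAAAG on the other strand (printed CTTTGT) at -142. The SLC24A5 window held CATGTG on the other strand (printed CACATG) at -15. The ATP7A window, not shown, held CACGTG and ACAAAG. No match was found in the windows of MFSD12, TEKTIP1, HMG20B, HERC2 and TPCN2. The MFSD12 window stands at the RefSeq start, which lies inside the longer body of the gene in GENCODE (3538261 to 3574290). In GENCODE, 5 of 15 MFSD12 transcripts reach the body of HMG20B, and their starts were not searched. Of 35116 windows of the same length, 11.1% held CATGTG, 7.26% CACGTG and 16.1% ACAAAG. The CLEAR palindrome of lysosomal genes, a longer form of CACGTG, was also searched, with no match in the 8 windows and one in 0.353% of all windows. No motif searched was common to the windows of the 4 genes that were higher. Of these 4, the window of OCA2 was 75.7% G and C, that of MFSD12 76.7%, that of HMG20B 70.3% and that of TEKTIP1 65%. Those of HERC2, ATP7A, TPCN2 and SLC24A5 were 72.3%, 66.7%, 66% and 51%.

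Levels are given as CPM, the count of a gene relative to its library's total, scaled by TMM, a method that adjusts for differences in composition. OCA2 (ENSG00000104044, chromosome 15, 27754875 to 28099358, minus strand, GRCh38) stood at 212, 234 and 270 CPM in anle138b replicates 1 to 3 and at 68.0, 73.6 and 54.2 CPM in untreated replicates 1 to 3. Every treated tumor was above every untreated one. The means were 239 ± 29.3 and 65.3 ± 9.98 CPM (SD, n = 3 each), a log2 fold change of 1.88 ± 0.14 (SE), or 3.68-fold, in the edgeR fit with a term for the naming set. The counts behind it were 2776 to 7641 in treated and 994 to 1278 in untreated tumors.

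MFSD12 (ENSG00000161091, chromosome 19, 3538261 to 3574290, minus strand) stood at 1047, 857 and 903 CPM after anle138b and at 296, 310 and 181 CPM without treatment. It was the most abundant of the 10 genes in the treated tumors, and the groups did not overlap. Its means were 935 ± 99.0 and 262 ± 70.9 CPM (SD, n = 3 each), a log2 fold change of 1.87 ± 0.16, or 3.66-fold. The lowest untreated value was that of the 2-library set.

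TEKTIP1 (chromosome 19, 3539154 to 3544030, plus strand), named for its binding to the tektin bundles of sperm flagella and cilia, stood at 85.1, 64.8 and 72.8 CPM after anle138b and at 21.1, 18.1 and 10.6 CPM without treatment. Its log2 difference, 2.22 ± 0.19 or 4.64-fold, was the highest of the 10. HMG20B (chromosome 19, 3572777 to 3579088, plus strand), an HMG-box subunit of a histone demethylase complex with CoREST, stood at 566, 474 and 420 CPM after anle138b and at 217, 263 and 127 CPM without treatment. Its log2 difference was 1.32 ± 0.15, or 2.49-fold. The groups did not overlap for either gene, and in both the 2-library set gave the lowest untreated value.

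HERC2 (chromosome 15, 28111040 to 28322152, minus strand), a very large ubiquitin ligase whose introns hold a melanocyte enhancer of OCA2, stood at 398, 412 and 392 CPM after anle138b and at 257, 302 and 301 CPM without treatment. The groups did not overlap, and the log2 difference was 0.48 ± 0.10, or 1.40-fold.

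The other 5 genes, all melanosomal, differed by less between the groups, and for each the groups overlapped in CPM. SLC45A2 (chromosome 5) stood at 184 to 251 CPM after anle138b and 201 to 294 CPM without, with a log2 difference of -0.24 ± 0.11. GPR143 (chromosome X) stood at 159 to 201 and 145 to 181 CPM, a log2 difference of 0.16 ± 0.12. SLC24A5 (chromosome 15) stood at 36.7 to 46.5 and 32.5 to 48.3 CPM, with 0.12 ± 0.13. ATP7A (chromosome X) stood at 38.0 to 54.4 and 37.9 to 51.5 CPM, with 0.085 ± 0.11. TPCN2 (chromosome 11) stood at 19.5 to 33.9 and 18.3 to 33.6 CPM, with 0.023 ± 0.11. The sign of the SLC24A5 and TPCN2 values was not stable, and turned when single libraries were left out.

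**Figure D1:**
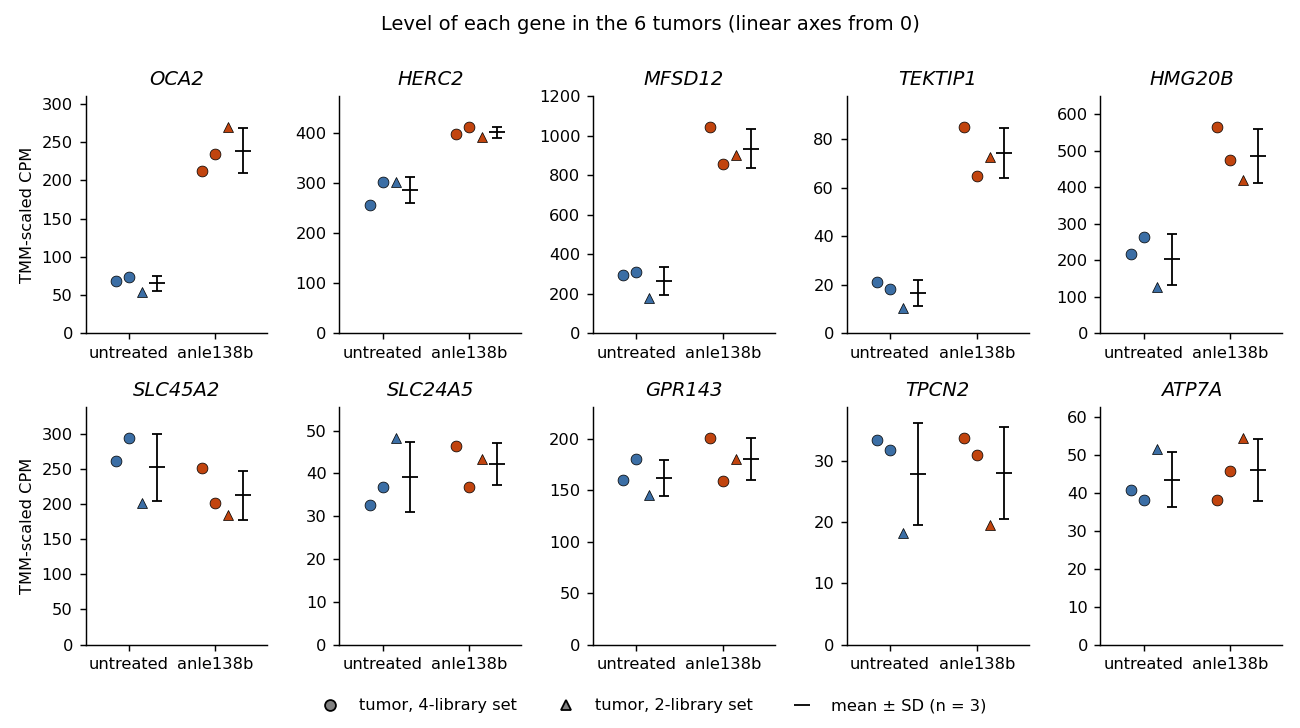
TMM-scaled CPM (vertical axis, linear from 0) of each of the 10 genes in untreated (blue) and anle138b (red) tumors; circles are the 4-library set, triangles the 2-library set, and bars mean ± SD (n = 3). OCA2, HERC2, MFSD12, TEKTIP1 and HMG20B show no overlap between the groups, and the other 5 overlap.

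Of the 10 genes, 4 (OCA2, MFSD12, TEKTIP1 and HMG20B) lay past the threshold of an adjusted p of 0.05 over all 20423 genes tested, all 4 upward, against 1.05% of all genes in either direction, 0.656% upward and 0.397% downward. In 5 of the 10, HERC2 with them, the treated tumors all lay above the untreated ones, as they did in 4.03% of all genes tested, and in 8.5% the groups did not overlap in either direction. The genes were chosen with this contrast known, so nothing is read from these shares. Which settings a gene passed under is likewise a description and no test of it. The median log2 difference was 0.32 over the 10 and -0.0092 over all genes tested. Dropping the set term left OCA2 past the threshold but not MFSD12, TEKTIP1 or HMG20B. All 4 passed under the other alternatives run. HERC2, not past the threshold in the main fit, was past it by the DESeq2 Wald test. In edgeR it was past the threshold with 50 counts required, on plain library sizes and without the count filter, but not otherwise.

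Read per length of exon, as TPM (counts divided by exon length and scaled to a fixed library sum), the order of the genes differed between the groups. Without treatment SLC45A2 led at 233 ± 11.8 TPM (SD, n = 3), followed by GPR143 at 198 ± 8.74 and HMG20B at 156 ± 34.0. MFSD12 came next at 149 ± 23.9 TPM, then TEKTIP1 at 73.7 ± 19.0, OCA2 at 59.9 ± 1.65 and HERC2 at 43.7 ± 8.23. SLC24A5, ATP7A and TPCN2 closed the order at 25.6 ± 8.97, 12.4 ± 3.92 and 8.12 ± 1.73 TPM. HMG20B and MFSD12, and TEKTIP1 and OCA2, overlapped in range and changed order between tumors, so they could not be ordered. ATP7A and TPCN2 also overlapped in range, but ATP7A was the higher within each tumor of both groups.

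After anle138b MFSD12 led at 559 ± 34.2 TPM, before HMG20B at 396 ± 14.1 and TEKTIP1 at 347 ± 31.3. All exon bases of TEKTIP1 lie in exons or introns of MFSD12 on the other strand, and the libraries do not mark strand. Reads of MFSD12 may therefore be counted in the TPM of TEKTIP1, and its place in the order of either group is uncertain. OCA2 at 232 ± 53.8 TPM then overlapped GPR143 at 229 ± 22.2, which overlapped SLC45A2 at 204 ± 8.32. Within each treated tumor GPR143 was above SLC45A2, and within each untreated one below it. HERC2 at 63.1 ± 7.34, SLC24A5 at 27.9 ± 3.40, ATP7A at 13.6 ± 3.87 and TPCN2 at 8.53 ± 1.69 TPM kept the last 4 places, with ATP7A and TPCN2 again overlapping. OCA2, below GPR143 and SLC45A2 in every untreated tumor, therefore overlapped their ranges in the treated ones. On this scale, which takes no TMM factor, SLC45A2 was 197 to 213 TPM in treated and 219 to 240 TPM in untreated tumors and the groups did not overlap, unlike in CPM.

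The treatment difference was next set out within each naming set. In the 4-library set alone the log2 fold changes were 1.66 ± 0.12 for OCA2, 1.65 ± 0.14 for MFSD12, 1.93 ± 0.16 for TEKTIP1 and 1.12 ± 0.14 for HMG20B (SE, 2 tumors per group). In the single pair of the 2-library set the log2 CPM differed by 2.32, 2.32, 2.77 and 1.72, in the same order, with no test. All 4 genes were thus higher after anle138b in each set, and the pair gave the larger value for all 4. HERC2 had 0.54 ± 0.13 in the 4-library set and 0.38 in the pair. SLC24A5 had opposite signs, 0.26 ± 0.14 and -0.15.

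A test of whether the treatment difference itself differed between the sets used an interaction term. It compares treatment differences in the same counts that were in view when the 10 genes were chosen, so it is not free of that choice. The interaction was 0.66 ± 0.21 for OCA2, 0.67 ± 0.26 for MFSD12, 0.85 ± 0.28 for TEKTIP1 and 0.61 ± 0.26 for HMG20B, on the log2 scale. None passed over all genes in the edgeR quasi-likelihood test (adjusted p = 0.686, 0.736, 0.686 and 0.747), nor did the other 6 (adjusted p up to 0.995), and these 4 alone of the 10 had an unadjusted p under 0.05. Over all genes edgeR called 0 interactions, with 1345 genes, 6.59%, at an unadjusted p under 0.05. DESeq2 called 31 and limma 0, and none of the 10 genes was among the 31. MFSD12 overlaps both TEKTIP1 and HMG20B in GENCODE, so these are not independent cases.

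**Figure D2:**
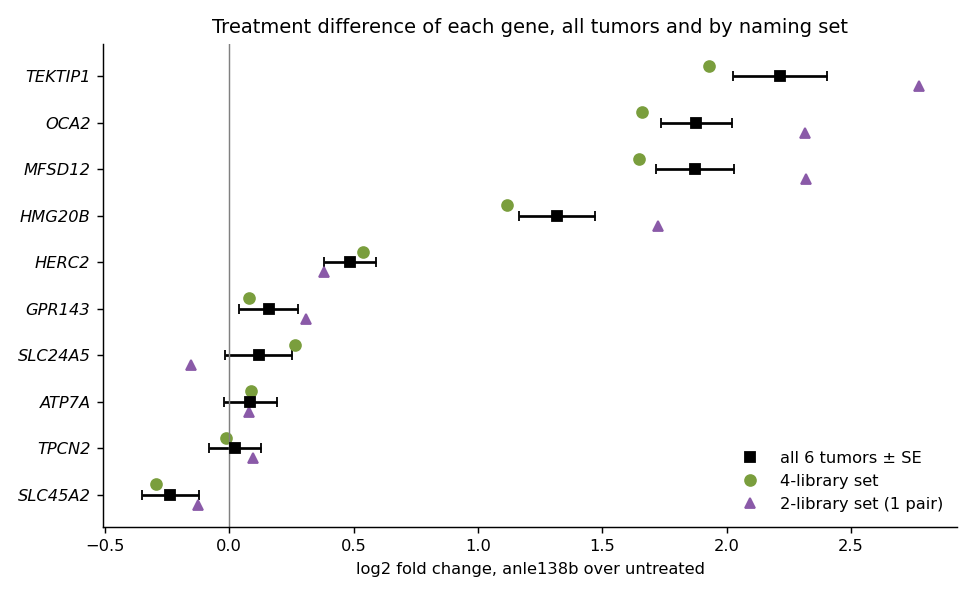
Log2 fold change of anle138b over untreated (horizontal axis) for the 10 genes: black squares are all 6 tumors with SE, green circles the 4-library set and purple triangles the single pair of the 2-library set. For OCA2, MFSD12, TEKTIP1 and HMG20B every mark lies above 1, and the triangle lies to the right of the circle.

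The level of the genes also differed between the naming sets, a comparison that their choice did not use. TPCN2 was lower in the 2-library set by a log2 value of -0.79 ± 0.11 (adjusted p = 0.00225, edgeR quasi-likelihood test), at 19.5 and 18.3 CPM against 31.0 to 33.9 CPM in the 4-library set. It passed under each of the 12 alternatives run, with values of -0.84 to -0.71. HMG20B was lower by -0.60 ± 0.16 (adjusted p = 0.0366) and ATP7A higher by 0.39 ± 0.11 (adjusted p = 0.0436). ATP7A stood at 54.4 and 51.5 CPM in the 2-library set against 37.9 to 45.6 CPM in the other. In all, 2 of the 10 genes were lower, against 7.14% of all genes, and 1 was higher, against 8.32%.

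The call of HMG20B between the sets was lost without anle138b replicate 1 (adjusted p = 0.0865), untreated replicate 1 (adjusted p = 0.0577) or untreated replicate 3 (log2 value -0.29, adjusted p = 0.419), and its value was -0.92 without anle138b replicate 3 (adjusted p = 0.0182). ATP7A kept its call when anle138b replicate 2 was left out and lost it when any other tumor was (adjusted p = 0.0797 to 0.225). OCA2 differed by -0.034 ± 0.15 (adjusted p = 0.899) and HERC2 by 0.032 ± 0.11 (adjusted p = 0.872). MFSD12 and TEKTIP1 had values of -0.39 ± 0.16 and -0.41 ± 0.19 (adjusted p = 0.133 and 0.179), and passed without anle138b replicate 2 (adjusted p = 0.0154 and 0.0103) or anle138b replicate 3 (log2 values -0.74 and -0.89, adjusted p = 0.0333 and 0.0281). Without untreated replicate 3 their values were -0.060 and -0.027 (adjusted p = 0.900 and 0.962). SLC45A2 had -0.38 ± 0.12 (adjusted p = 0.0655) and passed without anle138b replicate 2 (adjusted p = 0.00919).

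Because the library kit does not mark strand, the 3 genes at the MFSD12 locus were examined for shared exons in GENCODE release 29. The body of TEKTIP1 lies within that of MFSD12, sharing 4877 bases, and that of HMG20B overlaps its far end by 1514 bases. TEKTIP1 shares 255 of its 674 exon bases, 37.8%, with MFSD12 exons, and its other 419 exon bases lie in MFSD12 introns. HMG20B shares 369 of 3857 exon bases, 9.57%. Of 15 annotated MFSD12 transcripts, 4 share exon bases with HMG20B and 2 with TEKTIP1. In RefSeq, whose MFSD12 is shorter (3538275 to 3557586), the body of HMG20B stands 15357 bases away. FZR1 (chromosome 19), an activator of the anaphase-promoting complex that shares 70 exon bases with the other end of MFSD12, did not pass in the treatment fit, with a log2 value of -0.064 ± 0.17 (adjusted p = 0.978, edgeR quasi-likelihood test).

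TEKTIP1 had 8.13, 7.56 and 8.06 counts per 100 counts of MFSD12 in anle138b replicates 1 to 3, and 7.11, 5.85 and 5.84 in untreated replicates 1 to 3. The ratio was higher in each treated tumor, by much less than either gene's own difference. Each gene's whole count was also divided by the length of its exons shared with no other gene. On that scale TEKTIP1 stood at 72.5% to 78.0% of MFSD12 in treated and 56.0% to 68.2% in untreated tumors. The values hold for those exons only if reads in shared exons were counted for neither gene. HMG20B had 54.1, 55.4 and 46.6 counts per 100 counts of MFSD12 after anle138b and 73.2, 84.9 and 70.3 without treatment, so its ratio was lower in each treated tumor. An antisense RNA whose 565 exon bases all lie in MFSD12 exons (ENSG00000267436) had 0 counts in every library. MFSD12 had 4187 to 25525 counts in the same libraries, so this 0 sets no limit on the antisense RNA. How reads in shared exons were assigned is not stated, and reads of MFSD12 and TEKTIP1 cannot be told apart by strand.

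At OCA2, no annotated gene shares its exons, and the gap between its body and that of HERC2 is 11681 bases. Inside the OCA2 body, in introns and on the opposite strand, lie RPL5P32, a processed pseudogene of a ribosomal protein gene (27895704 to 27896582), and an antisense RNA (ENSG00000232394, 27775621 to 27776798). Both were picked after their values were seen. RPL5P32 had 68, 134 and 239 counts in treated and 34, 22 and 47 in untreated tumors, and rose by a log2 value of 2.08 ± 0.28 (adjusted p = 0.00859, edgeR quasi-likelihood test). The antisense RNA had 33, 47 and 134 counts against 13, 6 and 27, and rose by 2.18 ± 0.29 (adjusted p = 0.00774).

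Relative to OCA2, RPL5P32 had 2.45 to 4.57 counts per 100 in treated and 2.21 to 3.68 in untreated tumors, and the antisense RNA 1.19 to 1.75 and 0.604 to 2.11. These ratios overlapped between the groups. Per kilobase of exon the pair stood at 4.76% to 17.2% of the OCA2 value over the 6 tumors. Without strand, reads of these RNAs cannot be told apart from reads of the OCA2 introns. The call of RPL5P32 was lost without anle138b replicate 3 (adjusted p = 0.0558) or untreated replicate 1 (adjusted p = 0.0511), and that of the antisense RNA without anle138b replicate 3 (adjusted p = 0.0716). Neither passed in the 4-library set by itself (adjusted p = 0.0594 and 0.0682) or without the set term (adjusted p = 0.109 and 0.218).

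**Figure D3:**
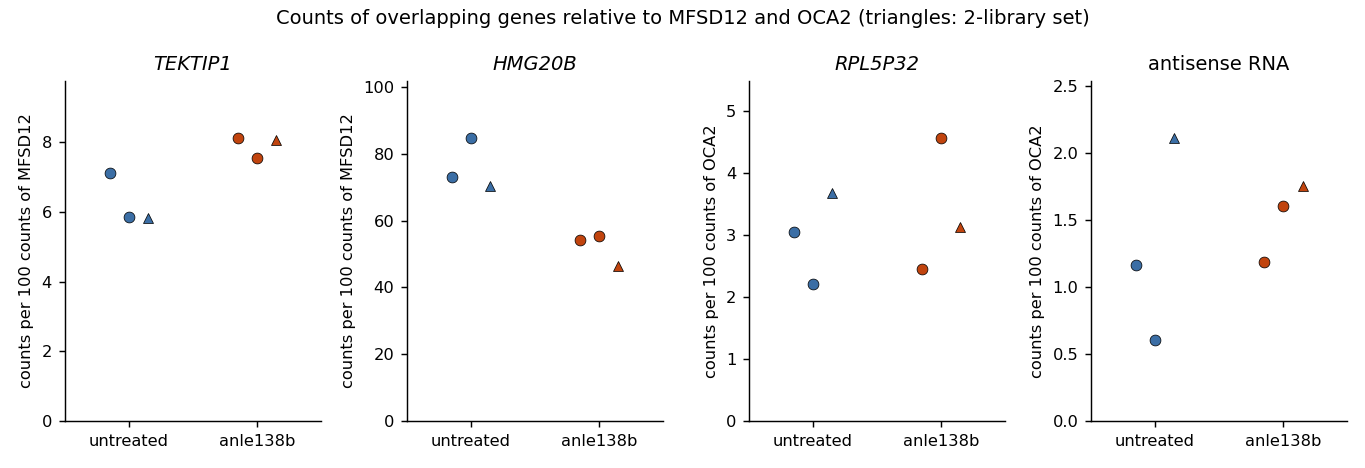
Counts of TEKTIP1 and HMG20B per 100 counts of MFSD12, and of RPL5P32 and the antisense RNA ENSG00000232394 per 100 counts of OCA2 (vertical axes, linear from 0), in each untreated (blue) and anle138b (red) tumor; triangles are the 2-library set. TEKTIP1 is higher and HMG20B lower in each treated tumor, and the ratios at OCA2 overlap.

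HERC2 has partial copies elsewhere in the genome, and its count is uncertain to the extent that reads were split among them. The files list 11 HERC2 pseudogenes, of which 5 passed the filter. Their summed counts, over all 11, equalled 15.4% to 18.5% of the HERC2 count in treated and 19.9% to 27.3% in untreated tumors. None of the 5 passed in the treatment fit, with log2 values of -0.14 to 0.35. SLC24A5 shares 1574 of its 4778 exon bases, 32.9%, with MYEF2 on the other strand, a repressor of myelin genes, which had a log2 value of -0.12 ± 0.13 (adjusted p = 0.935, edgeR). Its value is therefore less certain than that of GPR143, whose exons are shared with no gene. TPCN2 and ATP7A share 2.99% and 2.65% of their exon bases with other genes.

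Genes around the 2 loci were then counted, taking every protein-coding gene whose body lies within 500 kb of that of OCA2 or MFSD12. Of 31 such genes outside the 10, 17 were measured, and 0 passed in the treatment fit, with a median log2 value of -0.080 against -0.0092 over all genes. At MFSD12, 16 were measured. The nearest besides FZR1 were DOHH, a hydroxylase that completes the hypusine residue of a translation factor, at -0.069 ± 0.19 and CACTIN, a splicing-related protein gene, at -0.035 ± 0.19 (adjusted p = 0.980 and 0.990, edgeR). At OCA2, 1 was measured, GABRG3, a GABA receptor subunit on 1.40 ± 1.82 and 1.89 ± 2.37 CPM (SD, n = 3), with -0.46 ± 0.32 (adjusted p = 0.841). NMRK2, a nicotinamide riboside kinase gene named after its values were seen, had the largest value of the 17, -1.32 ± 0.27 (adjusted p = 0.0604, edgeR). In edgeR it passed without anle138b replicate 2 (adjusted p = 0.0315), on plain library sizes (adjusted p = 0.0280) and with no low-count filter (adjusted p = 2.39e-06). By the DESeq2 Wald test it passed as well (adjusted p = 0.00192). Under the other alternatives it did not pass.

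**Figure D4:**
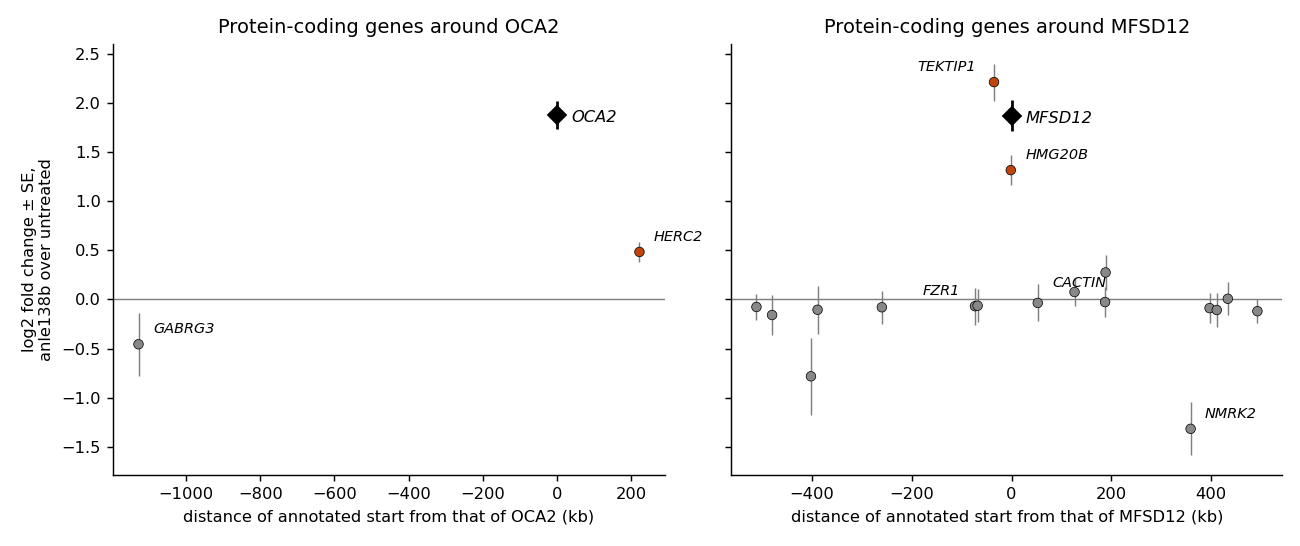
Log2 fold change of anle138b over untreated with SE (vertical axis) of measured protein-coding genes against the distance of their annotated start from that of OCA2 (left) or MFSD12 (right), in kb; diamonds are the named gene, red points are genes of the set of 10, grey points the others. TEKTIP1 and HMG20B stand near MFSD12 in value, and the 16 others there lie between -1.32 and 0.28.

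Related functions were described from lists drawn up for this purpose. Among ion channels and exchangers of melanosomes and lysosomes, 0 of 19 measured genes rose and 1 fell, against 0.397% of all genes that fell. This was SLC9A7, a sodium/proton exchanger of the trans-Golgi network, at 71, 59 and 168 counts in treated and 145, 114 and 263 in untreated tumors. It averaged 5.36 ± 0.619 CPM in treated and 9.48 ± 1.47 CPM in untreated tumors (SD, n = 3), and the log2 value was -0.82 ± 0.16 (adjusted p = 0.0488, edgeR). The call did not hold with DESeq2 size factors (adjusted p = 0.0521), the stricter count filter (adjusted p = 0.0507), no set term (adjusted p = 0.582) or the 4 libraries by themselves (adjusted p = 0.244). It also failed when any tumor other than anle138b replicate 2 was left out (adjusted p = 0.108 to 0.257). The list's median was -0.11.

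In copper and zinc handling 0 of 19 genes passed, and the median was 0.18. ATOX1, the chaperone that hands copper to ATP7A, stood at 105 ± 12.9 and 74.8 ± 7.47 CPM (SD, n = 3), with a log2 value of 0.50 ± 0.12 (adjusted p = 0.119, edgeR). Without anle138b replicate 2 it passed at 0.62 (adjusted p = 0.00892, edgeR). It also passed by the DESeq2 Wald test (adjusted p = 0.0182) and with no low-count filter (adjusted p = 0.00128, edgeR), but under no other alternative. MT1X, a metallothionein that binds both metals, had 0.63 ± 0.19 (adjusted p = 0.247). The proton pump of acidic organelles, the V-ATPase, had 0 of 22 subunits past the threshold, with a median of -0.034. Its lowest p-values were those of ATP6V0D2 at -0.67 ± 0.18 (adjusted p = 0.166) and ATP6V0A4 at -0.58 ± 0.17 (adjusted p = 0.241, edgeR), both subunits of restricted tissue range. ATP6V0D2 passed without untreated replicate 1 (adjusted p = 0.0389, edgeR) and by the DESeq2 Wald test (adjusted p = 0.0230). With no low-count filter both passed (adjusted p = 5.30e-06 and 0.0215, edgeR).

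Amino acid, cystine and nucleoside carriers with other MFSD genes numbered 18, of which 0 passed, with a median of -0.089. SLC7A11, the cystine importer of the plasma membrane, had -0.25 ± 0.10 and MFSD1, a lysosomal dipeptide carrier, 0.24 ± 0.10 (adjusted p = 0.463 and 0.507, edgeR). The machinery that delivers cargo to melanosomes numbered 31 genes, of which 0 passed, with a median of 0.028 and with HPS4 of the BLOC-3 complex at -0.28 ± 0.10 and LYST, a regulator of lysosome-related organelle size, at 0.34 ± 0.13 (adjusted p = 0.390 and 0.470).

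Pigment enzymes, melanosome structure genes and their regulators numbered 15, of which 0 passed, with a median of 0.080. TYRP1, a melanin enzyme, had 6435, 6172 and 24347 counts in treated and 2394, 1408 and 16591 in untreated tumors, and a log2 value of 1.42 ± 0.30 (adjusted p = 0.0692). It passed without anle138b replicate 2 or 3 or untreated replicate 3 (log2 values 1.28, 1.98 and 1.98). In the 4-library set alone TYRP1 had a log2 value of 1.98 (adjusted p = 0.000938, edgeR). In the single pair of the 2-library set its log2 CPM differed by 0.29, with no test. DCT, another melanin enzyme, stood at 3119 ± 180.0 and 2328 ± 112 CPM (SD, n = 3), with a log2 value of 0.42 ± 0.12 (adjusted p = 0.228, edgeR). DCT passed by the DESeq2 Wald test (adjusted p = 0.00417) and with no low-count filter (adjusted p = 7.25e-05, edgeR). TYRP1 did not pass by the DESeq2 Wald test (adjusted p = 0.0741).

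**Figure D5:**
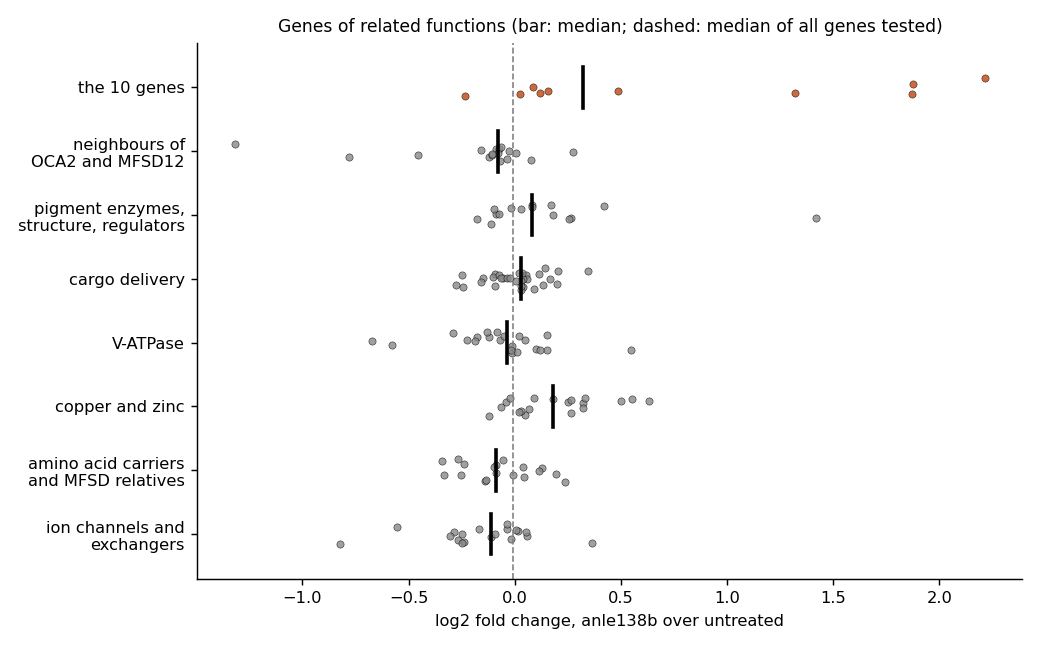
Log2 fold change of anle138b over untreated (horizontal axis) of the measured genes of each list, 1 point per gene, with the list's median as a bar and the median of all genes tested as a dashed line; the 10 genes are in red on top. List medians lie between -0.11 and 0.18, and TYRP1 at 1.42 is the gene farthest to the right outside the 10.

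The genes most like OCA2 in pattern were sought among 14068 genes with a symbol and an average log2 CPM of at least 1, by the root mean square difference of their centred log2 CPM over the 6 tumors. The nearest was SLC1A4, a carrier of neutral amino acids, at 0.074, with 318, 346 and 347 CPM in treated and 93.2, 104 and 78.6 CPM in untreated tumors. SORBS2, an adaptor of the actin skeleton, followed at 0.17 and CIITA, the transactivator of MHC class II genes, at 0.17. CSRP2, a LIM-domain protein, was at 0.26 and CYGB, cytoglobin, at 0.27. MFSD12 itself stood at 0.21 from OCA2, and HERC2, next to OCA2 on the chromosome, at 0.72.

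For MFSD12 the nearest was CYGB at 0.15, with 114, 103 and 80.3 CPM in treated and 27.4, 30.1 and 18.9 CPM in untreated tumors. HLA-DMA, a chain of the class II peptide loader, SLC1A4, CIITA and NQO1, a quinone reductase, followed at 0.19, 0.19, 0.21 and 0.23. TEKTIP1 stood at 0.19 from MFSD12 and HMG20B at 0.30. These distances are descriptions over 6 libraries that share the same 2 groups and sets.

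Depth was 12400782 to 27599159 counts per tumor, highest in the 2-library set. The labelled cell type was checked by 8 genes of the melanocytic lineage (among them MLANA, PMEL, MITF and SOX10), all measured, whose summed level was 11967 to 15955 CPM in treated and 11379 to 16279 CPM in untreated tumors. Markers of other cells were lower. Fibroblast genes summed to 473 to 858 and 439 to 581 CPM (8 of 8 measured, LUM upward by 0.70 ± 0.12 on the log2 scale, adjusted p = 0.0249 in edgeR), endothelial to 10.2 to 19.1 and 8.22 to 15.9 (5 of 6), and myeloid to 30.5 to 48.0 and 22.8 to 42.6 (4 of 7). Keratinocyte genes summed to 17.9 to 22.8 and 19.1 to 25.4 CPM (2 of 6), and skeletal muscle genes to 17.1 to 72.4 and 17.9 to 41.7 (4 of 6). In anle138b replicate 2 the muscle genes CKM, TNNT3 and DES had 131, 77 and 63 counts, against at most 11, 5 and 35 in the other tumors. MYH1 and MYH2 had 344 and 243 counts there, and 371 and 258 in untreated replicate 1. Lymphocyte genes summed to 0.319 to 0.672 and 0.183 to 1.61 CPM (0 of 5 measured, CD3D at 0 counts in every library). How mouse reads of the host were treated was not given, fewer cells of a type and less RNA per cell cannot be told apart in bulk tumors, and the part of other cells in the differences was not tested.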

How the data were processed

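Each of the 6 tumors has a file of unnormalized gene counts, made by the authors and deposited. Per the labels' protocols, Trizol was used for RNA and Illumina's TruSeq RNA v2 kit for libraries, which keeps no strand information. The submitters' processing notes name featureCounts 1.5.0-p1, STAR 2.5.2a, bcl2fastq 2.17.1.14 and the build hg38. The annotation release, the strand and multi-mapping settings and the handling of mouse reads are not given in the sources used here. Of 60617 identifiers, 58542 were in GENCODE release 29 (GRCh38), used for positions and exons, and 0 rows named no gene.

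After filterByExpr by group (minimum count 10, minimum total 15), 20423 genes entered edgeR 4.0.16 (R 4.3.3) with TMM scaling. The quasi-likelihood F test had terms for treatment and for the naming set, which left 3 residual degrees of freedom. P-values were adjusted by Benjamini-Hochberg over every gene, with a threshold of 0.05. A positive log2 fold change means a higher level in treated tumors, and its standard error was taken from the F statistic. Log2 CPM used a prior count of 2. TPM used merged exon lengths. The interaction fit had 2 residual degrees of freedom. The depth sets a floor of 3 counts, 0.109 to 0.242 CPM per library, which covers counting error only. The scripts were tested on simulated data.

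The fits were repeated by limma 3.58.1 voom and by the Wald test of DESeq2 1.42.0, with DESeq2's size factors or plain library sizes in place of TMM, and with 50 counts required in 3 libraries or no low-count filter. They were also repeated with the set term dropped, in the 4-library set, and leaving out each tumor in turn. Without replicate 3 of a group, the 2-library set holds 1 tumor, whose spread is taken to be like that of the others.

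The 10 genes, the lists and the tests were chosen with earlier results of these data known. The text names all 10, list genes past the threshold or else the 2 with the smallest p, the nearest measured neighbours, and the 5 genes nearest in pattern to OCA2 and MFSD12. Replicate numbers follow listing order and pair no tumors.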

Additional observations from a re-analysis of the deposited data

How the results depend on the processing

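No paired analysis was possible because the labels give no replicate numbers that pair tumors across the groups; the naming set, which holds both groups, was a term of the fit instead. The treatment count over all genes, 215 (134 up, 81 down), was 9 without the set term (9 up, 0 down), 284 with library size alone (155 up, 129 down), 754 with no low-count filter (354 up, 400 down), 412 by DESeq2 (231 up, 181 down), 92 in the 4-library set alone (73 up, 19 down), and 89 to 392 when 1 tumor was left out. The naming set count, 3157, was 6250 with no low-count filter and 993 to 5960 when 1 tumor was left out. The interaction count, 0, was 31 by DESeq2.

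The treatment values of the 10 genes are a description. Over the 14 alternatives, the log2 fold change was 1.66 to 1.98 for OCA2, 1.65 to 2.02 for MFSD12, 1.93 to 2.40 for TEKTIP1, 1.12 to 1.46 for HMG20B and 0.44 to 0.55 for HERC2. With 1 tumor left out, the treatment value of SLC24A5 was -0.024 (without anle138b replicate 1) to 0.28. That of TPCN2 was -0.014 in the 4-library set alone and -0.013 to 0.084 with 1 tumor left out, negative without anle138b replicate 1 or 3 or untreated replicate 3. The naming set value of OCA2 was 0.042 with library size alone, 0.015 with the 50-count filter and -0.38 to 0.29 with 1 tumor left out. That of HERC2 was -0.033 to 0.11 and that of GPR143 -0.23 to 0.018 with 1 tumor left out.

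The 1 call among ion channels and exchangers became 0 without the set term, with DESeq2 size factors, with the 50-count filter and in the 4-library set alone, and was 0 to 1 when 1 tumor was left out. Copper and zinc genes had 2 calls with no low-count filter, 1 by DESeq2 and 0 to 2 when 1 tumor was left out. V-ATPase genes had 2, 1 and 0 to 1. Cargo delivery genes had 1 with no low-count filter. Pigment genes had 1 with library size alone (TYRP1), 2 with no low-count filter (TYRP1 and DCT) and 1 by DESeq2 (DCT). They had 1 in the 4-library set alone (TYRP1) and 0 to 1 when 1 tumor was left out. The neighbours had 1 with library size alone, 1 with no low-count filter, 1 by DESeq2 and 0 to 1 when 1 tumor was left out. The cause of these shifts was not tested. Depth limits the lowest genes, such as the intronic RNAs of OCA2.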
